A study of Mus musculus with 33 samples.

Results

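The libraries labelled Ythdf2-cKO and Ythdf2-WT at 0 h of actinomycin D were compared gene by gene, in cultured hippocampal neural stem cells of mice at postnatal day 0.5. These are 6 of the 33 libraries of the study, 3 under each label, taken by their names in the deposited count table. The genotype labels read Nestin-cKO and Nestin-WT, naming Nestin, a gene of neural progenitors, and give neither the Cre line, the floxed allele nor the strain. All cells had been kept as adherent cultures with bFGF and EGF, and the labels give 5 µM actinomycin D, a transcription inhibitor, for all 6 libraries with a time of 0 h. The other libraries of the study were the same comparison at 2 h and 4 h and pull-downs of m6A-bearing RNA and of RNA bound to YTHDF2, all pull-downs from WT cells. Nothing in the labels says whether replicates were separate animals or cultures, so the p-values measure the spread between these samples, which may be technical.

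N6-methyladenosine (m6A) is a methyl mark that a nuclear enzyme complex places on mRNA, often near the stop codon. YTHDF2 is a cytoplasmic reader that binds the mark and brings the CCR4-NOT deadenylase complex to the mRNA, which shortens the poly(A) tail and leads to decay. Hippocampal neural stem cells are radial glia-like cells that express Nestin, Sox2 and Fabp7, divide in response to EGF and bFGF, and give rise to granule neurons and glia.

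Ythdf2, the gene named by the genotype, had 3117, 1035 and 736 CPM in cKO-labelled libraries, against 219, 253 and 258 CPM in WT (log2 difference 2.74, SE 0.37, adjusted p = 2.7e-04, edgeR quasi-likelihood test with Benjamini-Hochberg adjustment). CPM are read counts relative to library size, scaled with TMM factors, and differences are the libraries labelled cKO minus WT on the log2 scale. All 3 libraries labelled cKO lay above all 3 WT libraries, which goes against a loss of the transcript. The difference was 1.86 without cKO 1 and 3.10 without cKO 3. A count over the whole gene cannot show whether particular exons were missing, so the libraries are named here by their label. The gene lies at chr4:132184916-132212256 (GRCm38), and 29 tested genes, itself included, lie within 1 Mb of it. Of these, 5 were higher, Ythdf2 among them, and 0 were lower (edgeR), while 7.71% of all tested genes were higher. The 5 were Ythdf2, Wasf2 at 1.85, Smpdl3b at 1.30, Trnau1ap at 0.70 and Atpif1 at 0.49. The calls of Trnau1ap and Atpif1 were each lost in 7 of 14 alternatives, that of Wasf2 in 5 and that of Smpdl3b in 3. Each direction below refers to the label.

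Total counts were 10257329 to 12033301 in the libraries labelled cKO and 11100782 to 16244456 in WT. The libraries labelled cKO differed more among themselves: the median standard deviation of a gene's log2 CPM was 0.44 in them and 0.18 in WT (n = 3 each). Pearson's r of log2 CPM across the 14029 tested genes was 0.927 to 0.968 among the libraries labelled cKO, 0.983 to 0.985 among WT and 0.911 to 0.944 between the labels, as a description across genes. The first principal component, with 53.6% of the variance, separated the labels, and the second, with 25.2%, set library cKO 1 apart from the other 5. Stem cell markers were present in every library: Nes had 32.9 to 46.9 CPM in the libraries labelled cKO and 34.7 to 45.0 CPM in WT, and Sox2 had 61.9 to 102 and 68.1 to 78.1 CPM in the same order.

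Transcripts of the sex chromosomes split the libraries across the labels. Xist, the long noncoding RNA of X inactivation, had 1.57, 77.1 and 58.4 CPM in cKO-labelled libraries, against 145, 1.18 and 1.956 CPM in WT. Ddx3y, a Y-linked RNA helicase, had 42.1, 3.75 and 4.94 CPM in cKO-labelled libraries, against 4.11, 275 and 256 CPM in WT. Xist was thus high in cKO 2, cKO 3 and WT 1 and low in the other 3, and Ddx3y was high in WT 2 and WT 3, lower in cKO 1 and lowest in the rest. Eif2s3y, a Y-linked translation initiation factor, followed Ddx3y with 41.5, 4.13 and 2.87 CPM in cKO-labelled libraries, against 3.51, 218 and 227 CPM in WT. Kdm5d, a Y-linked histone demethylase, had 4.72, 0.450 and 0.797 CPM in cKO-labelled libraries, against 0.539, 56.5 and 45.9 CPM in WT, so for the 3 Y-linked genes cKO 1 lay between the others. None of these genes was called (edgeR), the 5 tested Y-linked genes gave 0 calls, and the X chromosome gave 26 higher and 65 lower among 499 tested genes, 5.21% and 13.03%. On the autosomes the shares were 6.44% to 10.2% higher and 7.18% to 13.7% lower. Labels do not give the sex of the cells, so the part of sex in the differences that follow was not tested. The split followed the label in part: the Y-linked genes were highest in WT 2 and WT 3, and Xist was high in cKO 2, cKO 3 and WT 1. The summed level of 9 X-inactivation and Y-linked genes was 69.4 to 96.8 CPM in the libraries labelled cKO and 161 to 647 CPM in WT.

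**Figure D1:**
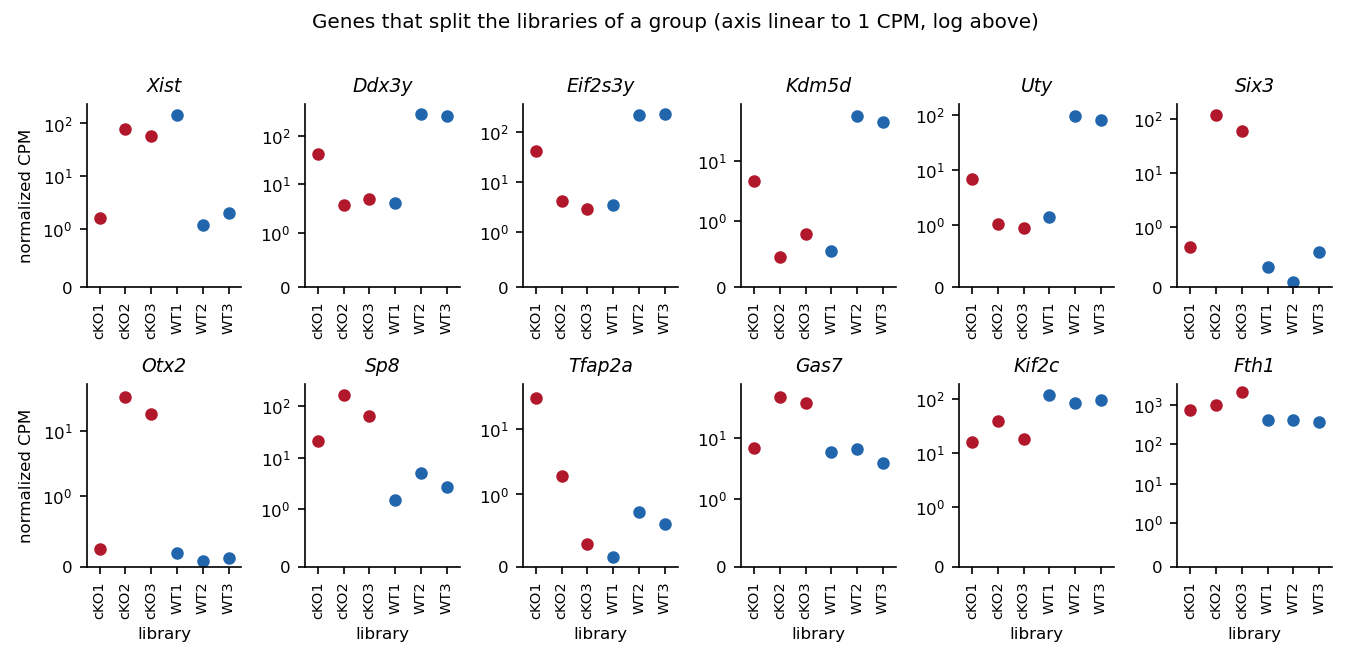
CPM of 12 genes in each of the 6 libraries at 0 h (symmetric log axis; 1 point per library, the libraries labelled cKO left of WT). Xist is high in cKO 2, cKO 3 and WT 1, Ddx3y, Eif2s3y, Kdm5d and Uty are highest in WT 2 and WT 3, Six3 and Otx2 are high in cKO 2 and cKO 3, and Tfap2a is high in cKO 1.

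In all, 2469 of 14029 tested genes differed at an adjusted p under 0.05 (17.6%): 1082 were higher in the libraries labelled cKO (7.71%) and 1387 were lower (9.89%). More than 2-fold differences made up 673 of the higher and 826 of the lower calls, and more than 4-fold differences 254 and 222. The 3 libraries of each label did not overlap for 5796 genes (41.3%), with the libraries labelled cKO all above WT for 2426 (17.3%) and all below for 3370 (24%). Among the called genes, 994 higher and 1382 lower ones did not overlap, and in 77 of the 88 higher calls that did overlap it was library cKO 1 alone that reached into the WT range. Leaving out 1 library moved the count of higher genes between 306 (without WT 1) and 1370 (without cKO 1), and that of lower genes between 567 (without WT 3) and 1476 (without cKO 1). Every library whose removal moved a count by more than 1.5 times is covered by these values: without WT 2 there were 429 higher and 686 lower genes, without WT 3 332 higher, without WT 1 633 lower and without cKO 3 779 lower. On the deposited TPM values limma called 1023 genes higher and 2429 lower, so that 29.6% of its calls were higher, against 43.8% in the count test; the median difference over all genes was −0.09 there and −0.01 in the count test. For the gene lists below, the libraries whose removal gave the lowest and the highest count are named. The 7.71% higher and 9.89% lower of all tested genes are the background for each list count. A gene near 0 under one label could pass the filter on low counts through the other label alone. For lists with such genes, among them Bgn, Vtn, Mmp10, Mmp2, Fgf9, Crabp1, Gabbr2 and Grb10, the count in that direction is partly set by the filter. No gene called at 0 h was called in the opposite direction under any of the 14 alternatives.

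The genes that rose with the smallest p-values included secreted enzymes and ligands and regulators of signalling. Mmp3, stromelysin-1, a protease of the extracellular matrix, had 19.1, 44.1 and 65.0 CPM in cKO-labelled libraries, against 0.270, 0.590 and 0.771 CPM in WT (log2 difference 6.26, SE 0.62, adjusted p = 1.3e-05). Adamts1, a secreted protease that cuts proteoglycans, had 156, 122 and 105 CPM in cKO-labelled libraries, against 18.9, 25.1 and 20.1 CPM in WT (log2 difference 2.58, SE 0.26, adjusted p = 1.5e-05). Jag1, a ligand of Notch receptors, had 112, 114 and 122 CPM in cKO-labelled libraries, against 20.0, 18.6 and 19.03 CPM in WT (log2 difference 2.59, SE 0.30, adjusted p = 4.8e-05). For each of the 3 genes all libraries labelled cKO lay above all WT libraries, and for Mmp3 the WT libraries were close to 0. Rgs16, a GTPase-activating protein of G proteins, had 36.2, 55.9 and 90.4 CPM in cKO-labelled libraries, against 1.955, 2.27 and 2.02 CPM in WT (log2 difference 4.87, SE 0.51, adjusted p = 1.8e-05). Its relative Rgs8 had 35.4, 51.7 and 38.2 CPM in cKO-labelled libraries, against 4.05, 3.62 and 4.15 CPM in WT (log2 difference 3.40, SE 0.43, adjusted p = 1.5e-04). For both genes every library labelled cKO was above every WT library, and none of these 5 calls was lost under an alternative. Angpt2, a ligand of the Tie2 receptor, had 422, 771 and 712 CPM in cKO-labelled libraries, against 151, 206 and 164 CPM in WT (log2 difference 1.87, SE 0.25, adjusted p = 2.2e-04). Lgals1, the galactose-binding protein galectin-1, had 1656, 3562 and 2416 CPM in cKO-labelled libraries, against 399, 529 and 469.7 CPM in WT (log2 difference 2.45, SE 0.33, adjusted p = 2.7e-04). Zfp36l1, an RNA-binding protein that recruits deadenylases to AU-rich mRNAs, had 154, 90.6 and 77.7 CPM in cKO-labelled libraries, against 32.9, 28.6 and 29.5 CPM in WT (log2 difference 1.82, SE 0.24, adjusted p = 1.9e-04). Slc30a4, a zinc exporter, had 349, 226 and 184 CPM in cKO-labelled libraries, against 77.6, 80.9 and 74.3 CPM in WT (log2 difference 1.70, SE 0.20, adjusted p = 7.1e-05). The 3 libraries of each label stood apart for all 4 of them. Mmp3 lies at chr9:7445822-7455975, Adamts1 at chr16:85793827-85803113, Jag1 at chr2:137081451-137116520, Rgs16 at chr1:153740353-153745468, Angpt2 at chr8:18690263-18741562 and Lgals1 at chr15:78926725-78930465 (GRCm38).

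The promoters of Mmp3 and Zfp36l1 are shown because both hold the AP-1 motif, which Fos and Jun proteins bind, and both genes rose in every library labelled cKO; the genes and the motif were chosen after the values were seen. Each runs from 250 bases before to 50 after the start of the gene, 5′ to 3′ on the gene's strand, from RefSeq (GRCm38.p6), with the motif TGANTCA in capitals. Mmp3 is at chr9:7445572-7445871 on the plus strand with the motif 46 bases before the start, and Zfp36l1 at chr12:80112964-80113263 on the minus strand with the motif 129 bases before it.
Mmp3: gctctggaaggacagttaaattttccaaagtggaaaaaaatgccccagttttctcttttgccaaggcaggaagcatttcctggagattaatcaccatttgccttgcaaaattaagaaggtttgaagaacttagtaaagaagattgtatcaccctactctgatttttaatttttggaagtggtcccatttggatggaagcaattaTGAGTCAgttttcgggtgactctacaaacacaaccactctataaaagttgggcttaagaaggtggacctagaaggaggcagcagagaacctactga
Zfp36l1: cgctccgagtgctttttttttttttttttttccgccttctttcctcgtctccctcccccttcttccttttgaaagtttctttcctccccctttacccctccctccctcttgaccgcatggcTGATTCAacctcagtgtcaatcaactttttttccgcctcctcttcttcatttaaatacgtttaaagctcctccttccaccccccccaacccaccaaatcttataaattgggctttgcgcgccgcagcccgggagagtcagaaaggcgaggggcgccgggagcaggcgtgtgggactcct
Searched on both strands, TGANTCA occurred in 7.81% of all 32851 promoters of the RefSeq table and in 5.08% of those of tested genes. A promoter was found for 9655 of the 14029 tested genes (68.8%), so a comparison of the share between higher and lower genes is void. A match is a description of letters in this window.

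Genes that fell with the smallest p-values included an mRNA of migrating neurons, adhesion and junction proteins and a lipid enzyme. Dcx, doublecortin, a microtubule-binding protein of young neurons, had 6.04, 9.83 and 6.13 CPM in cKO-labelled libraries, against 37.6, 50.2 and 49.1 CPM in WT (log2 difference −2.63, SE 0.21, adjusted p = 3.9e-06). Pla2g7, an enzyme that inactivates platelet-activating factor, had 450.0, 346 and 389 CPM in cKO-labelled libraries, against 1197, 1499.7 and 1503 CPM in WT (log2 difference −1.82, SE 0.16, adjusted p = 1.3e-05). Pcdh15, a protocadherin, had 11.3, 10.4 and 9.40 CPM in cKO-labelled libraries, against 159, 149 and 166 CPM in WT (log2 difference −3.93, SE 0.38, adjusted p = 1.3e-05). All libraries labelled cKO lay below all WT libraries for these genes. Cldn10, a tight junction protein, had 6.71, 5.26 and 3.82 CPM in cKO-labelled libraries, against 29.5, 34.1 and 38.1 CPM in WT (log2 difference −2.69, SE 0.26, adjusted p = 1.3e-05). Spon1, the secreted adhesion protein F-spondin, had 13.6, 13.7 and 9.80 CPM in cKO-labelled libraries, against 58.9, 54.8 and 52.8 CPM in WT (log2 difference −2.17, SE 0.22, adjusted p = 1.3e-05). Opcml, an adhesion protein of the immunoglobulin superfamily, had 6.38, 4.58 and 3.58 CPM in cKO-labelled libraries, against 35.8, 31.4 and 38.6 CPM in WT (log2 difference −2.86, SE 0.32, adjusted p = 4.2e-05). Pstpip2, an actin-associated adaptor, had 4.47, 3.83 and 3.90 CPM in cKO-labelled libraries, against 43.4, 26.3 and 28.3 CPM in WT (log2 difference −3.00, SE 0.29, adjusted p = 1.3e-05). Again the groups did not overlap, and none of these calls was lost under an alternative. Young neuron genes did not all fall: of 18 tested young neuron and proneural genes, 6 were lower, Dcx among them, and 3 higher (Stmn2, Dlx1 and Dlx2). The lower count lay between 5 (without cKO 2, cKO 3, WT 1, WT 2 or WT 3) and 7 (without cKO 1) when 1 library was left out. The higher count lay between 0 (without cKO 3, WT 1 or WT 2) and 3 (without cKO 1). Dcx lies at chrX:143855842-143933396, Pla2g7 at chr17:43567994-43612202, Pcdh15 at chr10:73096277-74649831 and Cldn10 at chr14:118787871-118874525.

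**Figure D2:**
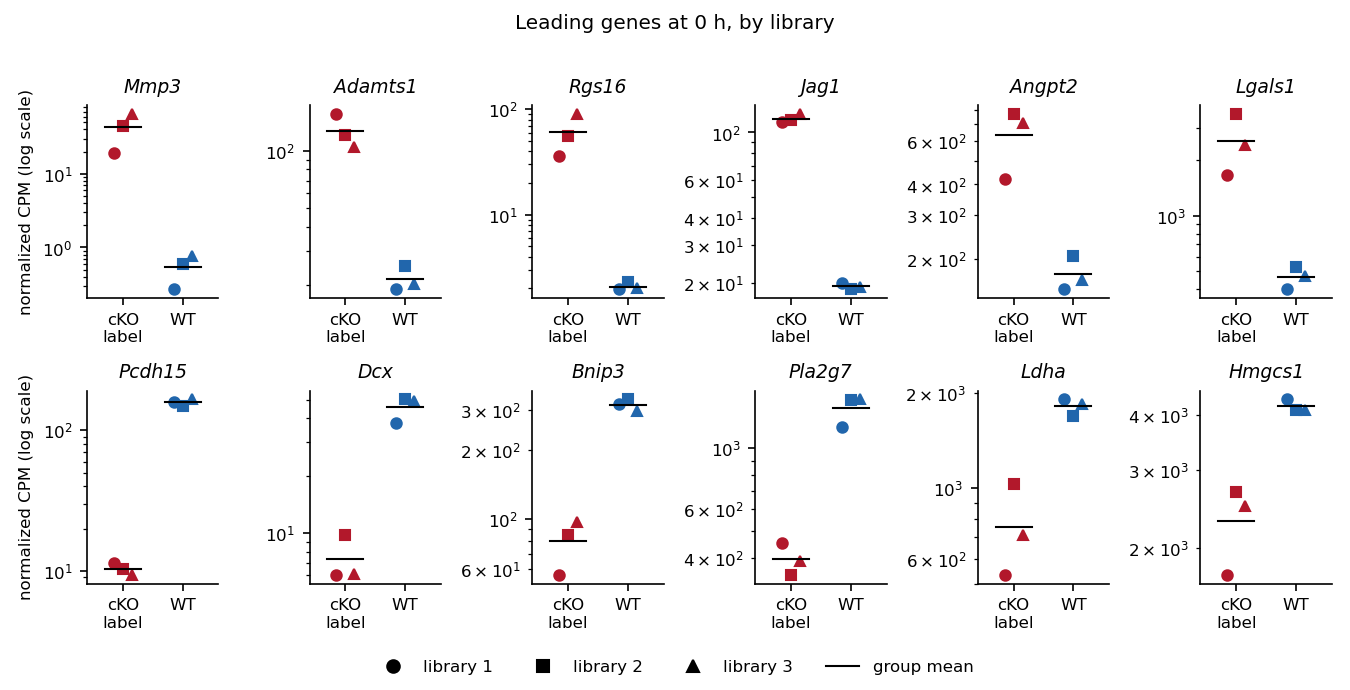
TMM-scaled CPM (log axis) of 12 named genes in each library at 0 h, the libraries labelled cKO left of WT, with a line at each group's mean (n = 3 each). Mmp3, Adamts1, Rgs16, Jag1, Angpt2 and Lgals1 are higher in every library labelled cKO, and Pcdh15, Dcx, Bnip3, Pla2g7, Ldha and Hmgcs1 lower in every one.

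Of the 6 higher genes with the most transcripts per length (TPM), 4 encode subunits of mitochondrial complexes, and the 6 lower ones included Fabp7, Hmgcs1 and Ldha. The other 2 higher genes, Rnr1 and Rnr2, match no RefSeq gene by symbol. Ndufa4, a subunit of cytochrome c oxidase, had 1454, 1345 and 1250.1 CPM in cKO-labelled libraries, against 761, 840.3 and 853 CPM in WT. Uqcrq, a subunit of the cytochrome bc1 complex, had 1447, 1232 and 1074 CPM in cKO-labelled libraries, against 665, 786 and 773 CPM in WT. Their differences were 0.72 (adjusted p = 0.00286) and 0.76 (adjusted p = 0.00332), and both calls ended with the length trend removed. On the lower side Hmgcs1, an enzyme of cholesterol synthesis, had 1737, 2676 and 2481 CPM in cKO-labelled libraries, against 4333, 4092 and 4106 CPM in WT (log2 difference −0.86, SE 0.19, adjusted p = 0.00835). Fabp7, a brain fatty acid-binding protein and marker of radial glia, had 4306, 5577 and 2197 CPM in cKO-labelled libraries, against 7981, 8440.3 and 8461 CPM in WT (log2 difference −1.04, SE 0.32, adjusted p = 0.0357). This call ended without cKO 1, cKO 3, WT 1, WT 2 or WT 3 and in the fit of the 6 libraries alone. Library cKO 3 was the lowest for Fabp7, and all 3 libraries labelled cKO lay below WT.

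Genes of the extracellular matrix, the network of secreted proteins around cells, were more often higher than lower. Of 60 tested non-collagen matrix genes, 21 were higher and 4 lower, with a median difference of 0.72 against −0.01 over all genes; the higher count lay between 10 (without WT 1) and 25 (without cKO 1) when 1 library was left out. Decorin (Dcn), a collagen-binding proteoglycan, had 4.31, 9.23 and 13.2 CPM in cKO-labelled libraries, against 0.337, 0.253 and 0.296 CPM in WT (log2 difference 4.87, SE 0.48, adjusted p = 1.3e-05). Its relative lumican (Lum) had 8.36, 15.8 and 28.4 CPM in cKO-labelled libraries, against 0.135, 0.253 and 0.534 CPM in WT (log2 difference 5.75, SE 0.65, adjusted p = 4.2e-05). Biglycan (Bgn) had 0.745, 2.33 and 2.95 CPM in cKO-labelled libraries, against 0.0674, 0.169 and 0.237 CPM in WT (log2 difference 3.59, SE 0.66, adjusted p = 0.0026). Vitronectin (Vtn) had 0.414, 0.826 and 1.59 CPM in cKO-labelled libraries, against 0.0674, 0.0843 and 0 CPM in WT (adjusted p = 0.00796). WT libraries were near 0 for Dcn and Lum, and no WT library reached any library labelled cKO for the 4 genes. Osteopontin (Spp1), a phosphoprotein that binds integrins, had 93.2, 122 and 159 CPM in cKO-labelled libraries, against 23.9, 27.6 and 29.2 CPM in WT (log2 difference 2.21, SE 0.35, adjusted p = 8.8e-04). Fibronectin (Fn1) went the other way with 3.89, 9.01 and 10.4 CPM in cKO-labelled libraries, against 16.9, 28.9 and 19.6 CPM in WT (log2 difference −1.49, SE 0.40, adjusted p = 0.0204). It was no longer called without cKO 1 or WT 2 and with the length trend removed. Of 26 tested collagen genes 9 were higher and 1 lower, with a median of 1.57 and between 5 (without WT 1, WT 2 or WT 3) and 9 (without cKO 1 or cKO 2) higher when 1 library was left out. The basement membrane chains Col4a5 and Col4a6 differed by 1.6003 (adjusted p = 0.00195) and 1.66 (adjusted p = 0.0076), and the fibrillar collagen Col3a1 by 4.19 (adjusted p = 0.00839).

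Extracellular proteases and their inhibitors moved in both directions. Of 39 tested, 9 were higher and 3 lower (median 0.32), with between 5 (without WT 1 or WT 3) and 9 (without cKO 1) higher when 1 library was left out. Mmp10, stromelysin-2, had 2.07, 2.40 and 3.03 CPM in cKO-labelled libraries, against 0, 0 and 0 CPM in WT. Mmp19 had 6.87, 23.05 and 36.6 CPM in cKO-labelled libraries, against 2.70, 3.79 and 3.74 CPM in WT (log2 difference 2.70, SE 0.45, adjusted p = 0.00127). The gelatinase Mmp2 had 0.414, 2.48 and 2.87 CPM in cKO-labelled libraries, against 0.0674, 0 and 0.237 CPM in WT (log2 difference 4.01, SE 0.95, adjusted p = 0.0108). This call ended without WT 1. Timp3, an inhibitor of these proteases that stays bound to the matrix, fell, with 42.5, 117 and 135 CPM in cKO-labelled libraries, against 254, 244 and 246 CPM in WT (log2 difference −1.34, SE 0.31, adjusted p = 0.00901). The libraries of each label did not overlap for Mmp10, Mmp19 or Timp3.

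Markers of fibroblasts and meninges moved with these matrix genes, and both lists hold some genes, such as Dcn and Lum. Of 22 such markers with counts listed, 17 were tested, of which 9 were higher and 0 lower (1 lower at an unadjusted p under 0.05 and 0 by DESeq2). Their summed level was 37.5 to 119 CPM in the libraries labelled cKO and 17.7 to 32.2 CPM in WT; Twist2 was at 0 in all 6. The higher count lay between 4 (without WT 1) and 11 (without cKO 1) when 1 library was left out. Markers near 0 in WT could pass the filter on low counts only through libraries labelled cKO, so 9 of 17 is partly set by the filter. With no filter on low counts 12 were higher and 1 lower. In bulk libraries more cells of a type cannot be told apart from more RNA per cell, and the part of these markers in the matrix result was not tested. Of 16 microglial and macrophage markers 3 were tested, and Csf1r, Itgam, C1qa, C1qb, C1qc, Tyrobp and Ctss were at 0 in all 6 libraries. The summed level was 38.2 to 49.3 CPM in the libraries labelled cKO and 26.4 to 30.9 CPM in WT. Endothelial Cdh5 and Cldn5 were at 0 in all 6.

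Ligands, receptors and feedback inhibitors of growth factor signalling gave calls in both directions: 19 of 50 tested genes were higher and 7 lower, with a median of 0.48. The higher count lay between 5 (without WT 3) and 17 (without cKO 1) when 1 library was left out. Among the ligands, Fgf9 had 2.24, 2.55 and 3.27 CPM in cKO-labelled libraries, against 0.0674, 0 and 0.119 CPM in WT (adjusted p = 0.00163). Hbegf, a ligand of the EGF receptor, had 623, 518 and 548 CPM in cKO-labelled libraries, against 187, 189 and 176 CPM in WT (log2 difference 1.61, SE 0.39, adjusted p = 0.013). The call of the gene ended without WT 1 or WT 3. The EGF receptor ligands Areg and Ereg also rose, by 3.32 (adjusted p = 0.0185) and 2.94 (adjusted p = 0.0251). Their calls ended without cKO 1, WT 1, WT 2 or WT 3 and in the fit of the 6 libraries alone for Areg and without cKO 1, cKO 3, WT 1 or WT 3 for Ereg. Areg reached 21.4, 2.85 and 0.956 CPM in cKO 1, 2 and 3, against 0.742, 0.590 and 1.13 CPM in WT, so cKO 1 stood far above the rest. The neurotrophin Bdnf had 234, 81.8 and 58.0 CPM in cKO-labelled libraries, against 22.99, 35.6 and 31.4 CPM in WT (log2 difference 2.05, SE 0.51, adjusted p = 0.0144). It was no longer called without cKO 1, WT 1 or WT 3. Feedback inhibitors of the ERK pathway rose with them. Spry2, an inhibitor of receptor tyrosine kinase signalling, had 676, 249.5 and 196 CPM in cKO-labelled libraries, against 92.0, 111 and 110.3 CPM in WT (log2 difference 1.84, SE 0.33, adjusted p = 0.00218). Dusp4, a phosphatase that inactivates ERK, had 24.4, 16.4 and 12.1 CPM in cKO-labelled libraries, against 2.36, 2.70 and 3.08 CPM in WT (log2 difference 2.69, SE 0.40, adjusted p = 4.9e-04). Neither call was lost under an alternative, and for both genes cKO 1 was the highest library. Receptors of the list were called in both directions, with Igf1r higher and Fgfr3, Pdgfra, Erbb4 and Ntrk3 lower. Fgfr3, an FGF receptor of astroglia, had 32.6, 15.99 and 17.2 CPM in cKO-labelled libraries, against 43.6, 48.4 and 44.5 CPM in WT (log2 difference −1.05, SE 0.24, adjusted p = 0.00991). Pdgfra, the PDGF receptor of oligodendrocyte precursors, had 16.2, 41.1 and 32.7 CPM in cKO-labelled libraries, against 169.6, 243 and 218 CPM in WT (log2 difference −2.81, SE 0.32, adjusted p = 4.8e-05). Igfbp5, which binds insulin-like growth factors, had 28.4, 25.1 and 23.3 CPM in cKO-labelled libraries, against 61.2, 86.8 and 94.7 CPM in WT (log2 difference −1.66, SE 0.25, adjusted p = 5.3e-04). Fgfr3, Pdgfra and Igfbp5 lay lower in every library labelled cKO, while Igfbp2, Igfbp3 and Igfbp4, relatives of Igfbp5, were called higher.

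Among cytokine, chemokine and complement genes 12 of 38 tested genes were higher and 1 lower, the rest were not called, with a median of 0.98; the higher count lay between 6 (without WT 3) and 12 (without cKO 1) when 1 library was left out. Ccl11, the chemokine eotaxin, had 3.81, 5.56 and 6.45 CPM in cKO-labelled libraries, against 0.202, 0.337 and 0.119 CPM in WT (log2 difference 4.59, SE 0.60, adjusted p = 1.9e-04). Ptgs2, the inducible cyclooxygenase, had 64.7, 72.1 and 52.1 CPM in cKO-labelled libraries, against 7.82, 12.2 and 9.19 CPM in WT (log2 difference 2.69, SE 0.46, adjusted p = 0.0015). The single lower gene was Il1rap, the co-receptor of interleukin-1, with 251, 305 and 261 CPM in cKO-labelled libraries, against 835, 635 and 763 CPM in WT (log2 difference −1.45, SE 0.20, adjusted p = 2.8e-04). The groups did not overlap for these 3 genes. Of 40 tested interferon response and antigen presentation genes 7 were higher and 1 lower, with between 2 (without cKO 2, WT 1 or WT 3) and 10 (without cKO 1) higher when 1 library was left out. Ifitm2, an interferon-induced membrane protein whose reads may be shared with near-identical relatives, differed by 1.06 (adjusted p = 0.00266).

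The actin, YAP and TEAD, NRF2 and lysosome lists had more higher than lower calls, at shares of 17.9%, 26.3%, 24.3% and 17.2% higher against 7.71% of all tested genes. Of 39 tested actin cytoskeleton and SRF target genes 7 were higher and 0 lower (5 lower at an unadjusted p under 0.05 and 0 by DESeq2), with between 2 (without WT 1 or WT 3) and 7 (without cKO 1) higher when 1 library was left out. Anxa1, a calcium-dependent phospholipid-binding protein, had 23.6, 26.2 and 45.7 CPM in cKO-labelled libraries, against 2.29, 1.69 and 2.73 CPM in WT (log2 difference 3.82, SE 0.66, adjusted p = 0.00172). Of 19 tested genes of the YAP and TEAD pathway 5 were higher and 1 lower, with between 3 (without WT 1 or WT 3) and 6 (without cKO 1) higher. The matricellular target Cyr61 had 21.4, 30.9 and 34.0 CPM in cKO-labelled libraries, against 3.57, 7.16 and 5.63 CPM in WT (log2 difference 2.40, SE 0.51, adjusted p = 0.00603). Wwtr1, which encodes the coactivator TAZ, had 102, 90.2 and 56.6 CPM in cKO-labelled libraries, against 16.3, 24.8 and 19.7 CPM in WT (log2 difference 2.03, SE 0.40, adjusted p = 0.00364). Both genes were higher in every library labelled cKO. NRF2 and glutathione genes gave 9 higher and 0 lower of 37 tested (1 lower at an unadjusted p under 0.05 and 1 by DESeq2), but the higher count lay between 1 (without WT 1, WT 2 or WT 3) and 16 (without cKO 1). Mgst3, a microsomal glutathione transferase, had 87.7, 75.9 and 91.4 CPM in cKO-labelled libraries, against 36.9, 44.2 and 40.4 CPM in WT (log2 difference 1.07, SE 0.16, adjusted p = 5.1e-04), and its call was kept under every alternative. Hmox1, which degrades heme, had 29.2, 87.9 and 199.9 CPM in cKO-labelled libraries, against 31.1, 41.7 and 24.4 CPM in WT (log2 difference 1.71, SE 0.50, adjusted p = 0.0281). Fth1, the ferritin heavy chain, had 742, 1022 and 2111 CPM in cKO-labelled libraries, against 414, 414 and 382 CPM in WT (log2 difference 1.68, SE 0.45, adjusted p = 0.0196). For both, cKO 3 was far above the other libraries, and the calls ended without cKO 3, WT 1, WT 2 or WT 3, by limma on TPM and in the fit of the 6 libraries alone for Hmox1 and without cKO 3, WT 1, WT 2 or WT 3 for Fth1. Lysosome and autophagy genes gave 10 higher and 2 lower of 58 tested, between 1 (without WT 3) and 10 (without cKO 1) higher. The protease Ctsf had 12.5, 17.0 and 22.5 CPM in cKO-labelled libraries, against 5.93, 7.67 and 6.05 CPM in WT (log2 difference 1.41, SE 0.29, adjusted p = 0.00517).

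**Figure D3:**
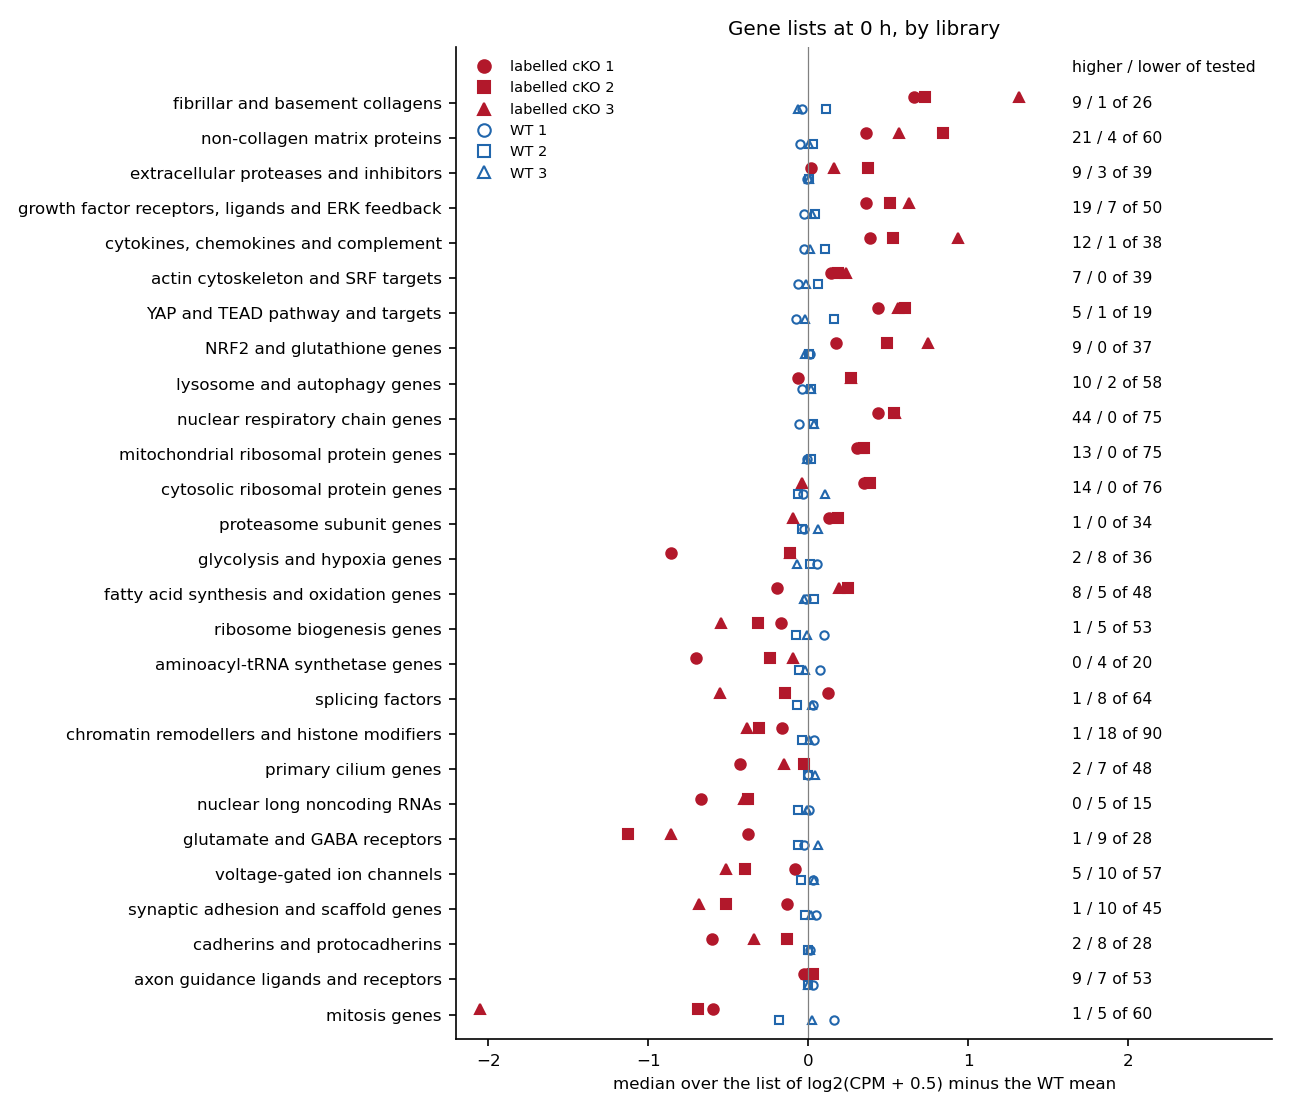
Median over the tested members of 27 gene lists of log2(CPM + 0.5) in each library minus the WT mean of that gene, with the libraries labelled cKO and WT as separate points; the numbers at the right are the members called higher and lower of those tested. The respiratory chain list shows 44 higher and 0 lower of 75, and the mitosis list sits at −0.60, −0.69 and −2.05 in cKO 1, 2 and 3.

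Of the 63 lists, the largest share of higher calls was that of the nuclear genes of the respiratory chain, the inner mitochondrial membrane complexes that make ATP. Of 75 tested genes 44 were higher and 0 lower (0 lower at an unadjusted p under 0.05 and 0 by DESeq2), with a median of 0.56 and library medians of 0.44, 0.54 and 0.54 in cKO 1, 2 and 3. The higher count lay between 14 (without WT 1) and 50 (without cKO 1) when 1 library was left out. Atp5g3, a subunit of the ATP synthase ring, had 356, 276 and 314 CPM in cKO-labelled libraries, against 119, 114 and 116 CPM in WT (log2 difference 1.44, SE 0.23, adjusted p = 8.6e-04). Cyc1, cytochrome c1, had 119, 95.1 and 119.6 CPM in cKO-labelled libraries, against 49.96, 50.6 and 43.8 CPM in WT (log2 difference 1.21, SE 0.25, adjusted p = 0.00535). Both calls were kept under every alternative. Mitochondrial ribosomal protein genes gave 13 higher and 0 lower of 75 (2 lower at an unadjusted p under 0.05 and 0 by DESeq2), between 1 (without WT 1 or WT 3) and 12 (without cKO 1) higher. Cytosolic ribosomal protein genes gave 14 higher and 0 lower of 76 (0 lower at an unadjusted p under 0.05 and 0 by DESeq2), between 2 (without WT 2) and 24 (without cKO 3) higher. The list's median was 0.35, 0.39 and −0.04 in cKO 1, 2 and 3. Ribosomal protein genes have near-identical processed copies, so their single values are uncertain. Of 8 tested mRNAs encoded in the mitochondrial genome 2 were higher and 0 lower (0 lower at an unadjusted p under 0.05 and 0 by DESeq2), mt-Nd2 at 0.64 and mt-Nd4 at 0.74. These ended without WT 1 or WT 2 and with the length trend removed for mt-Nd2 and without cKO 3, WT 1 or WT 2 for mt-Nd4.

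Transcript length separated the higher from the lower genes. Relative length was taken from the ratio of deposited counts to deposited TPM, set to about 1 for the median gene: the median was 0.73 for genes that were higher, 1.46 for those that were lower and 1.01 for all tested genes. In 5 groups of equal size from the shortest to the longest transcripts, 12.4%, 10.3%, 6.06%, 5.49% and 4.31% of genes were higher, and 2.96%, 5.95%, 8.06%, 13.3% and 19.2% were lower. Median differences fell along the same order, at 0.28, 0.14, −0.01, −0.17 and −0.31. Each library labelled cKO showed it: against the WT mean, the shortest group lay at 0.17, 0.25 and 0.22 in cKO 1, 2 and 3, and the longest at −0.29, −0.30 and −0.40. The genomic span followed, with a median of 15668 bases for higher, 43989 for lower and 24183 for all tested genes. Long noncoding RNAs made up 1.79% of the higher and 4.96% of the lower genes, against 4.27% of all tested genes. Other measures of the libraries moved with the label too: ribosomal protein genes took 3.99% to 4.78% of counts in the libraries labelled cKO and 3.53% to 3.82% in WT, and the 50 most abundant genes took 17.7% to 20.6% and 15.98% to 16.9% in the same order. Genes whose symbols start with mt-, a set without Rnr1 and Rnr2, took 3.09% to 3.16% of counts in the libraries labelled cKO and 2.61% to 2.89% in WT. Their part in the length gradient was not tested, and no measure of RNA integrity was used here.

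With the trend over length removed from each library, an alternative chosen after the data were seen, 1006 genes were higher, of which 806 were called before, and 894 were lower, of which 823 were called before. The respiratory chain then gave 13 higher genes in place of 44, the mitochondrial ribosome 3 in place of 13 and the cytosolic ribosome 1 in place of 14. The secreted protein lists moved little: 23 matrix genes were higher and 3 lower, and 20 growth factor genes higher and 6 lower. The count of lower chromatin genes went to 4 with the trend removed, against 18 with it, that of lower splicing factors to 2 against 8 and that of lower primary cilium genes to 3 against 7. Lower glutamate and GABA receptor genes went to 4 against 9, and lower synaptic adhesion genes to 5 against 10. Cadherins and protocadherins turned, with 6 higher and 3 lower and a median of 0.08 once the trend was removed, against 2 higher and 8 lower and a median of −0.28 with it.

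**Figure D4:**
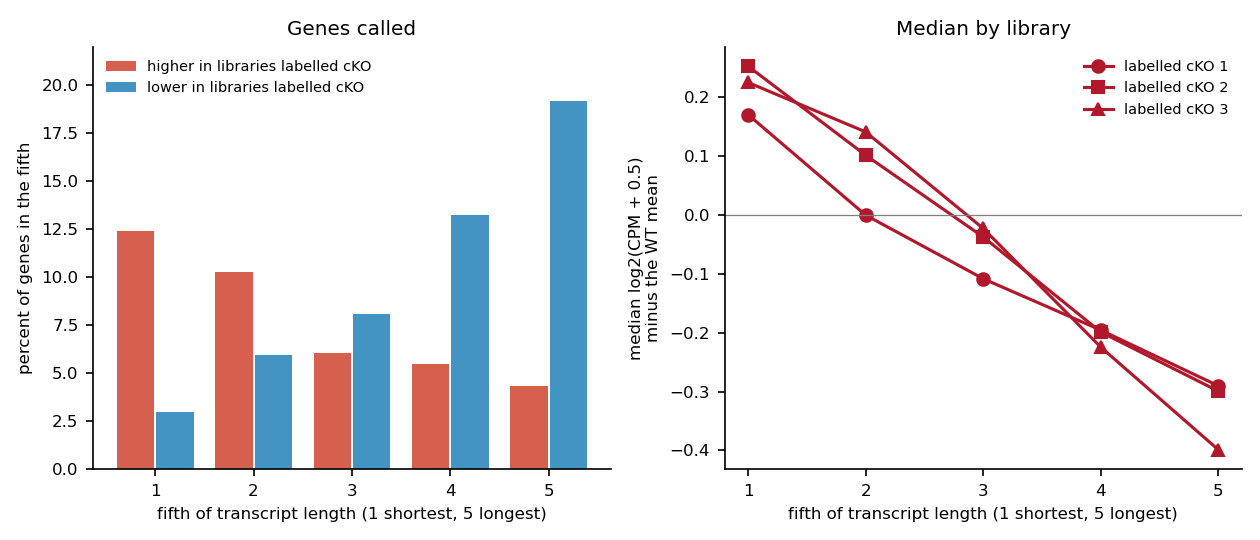
Genes in 5 groups by relative transcript length, shortest at the left: bars give the percentage of genes called in each direction (left), and points the median over genes of log2(CPM + 0.5) minus the WT mean in each library labelled cKO (right). The share of lower genes is 2.96% in the shortest and 19.2% in the longest group, and the share of higher genes 12.4% and 4.31%.

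Lists of chromatin, splicing, ribosome biogenesis, tRNA synthetase and nuclear noncoding RNA genes each had more lower than higher calls. Their lower shares were 20%, 12.5%, 9.43%, 20% and 33.3% in this order, against 9.89% of all tested genes, so that ribosome biogenesis lay at the share of all genes. Of 90 tested chromatin remodellers and histone modifiers 18 were lower and 1 higher (median −0.28), with between 5 (without WT 3) and 17 (without cKO 1) lower when 1 library was left out. Arid2, a subunit of the PBAF remodelling complex, had 53.8, 78.8 and 49.5 CPM in cKO-labelled libraries, against 152, 146 and 159 CPM in WT (log2 difference −1.33, SE 0.21, adjusted p = 9.1e-04). Kdm3a, a demethylase of histone H3 lysine 9 that hypoxia induces, had 22.8, 29.4 and 29.5 CPM in cKO-labelled libraries, against 66.5, 59.4 and 56.4 CPM in WT (log2 difference −1.16, SE 0.19, adjusted p = 9.8e-04). Setd2, the histone H3 lysine 36 methyltransferase, had 45.5, 64.0 and 52.1 CPM in cKO-labelled libraries, against 113, 108 and 116 CPM in WT (log2 difference −1.06, SE 0.21, adjusted p = 0.00364). All 3 were lower in every library labelled cKO, while the single higher gene was the class II deacetylase Hdac7 at 1.53 (adjusted p = 0.00768). Splicing factors gave 8 lower and 1 higher of 64, between 1 (without cKO 3 or WT 3) and 10 (without cKO 1) lower, and 2 lower with the length trend removed. Srsf3, an SR protein, had 347, 345 and 236 CPM in cKO-labelled libraries, against 626, 520.4 and 656 CPM in WT (log2 difference −0.96, SE 0.23, adjusted p = 0.0115). This call ended without WT 3. Ribosome biogenesis genes gave 5 lower and 1 higher of 53, between 3 (without WT 2 or WT 3) and 12 (without cKO 1) lower. Tsr1, a maturation factor of the small subunit, had 22.7, 35.5 and 37.0 CPM in cKO-labelled libraries, against 96.96, 79.4 and 76.5 CPM in WT (log2 difference −1.41, SE 0.28, adjusted p = 0.00392). Of 20 aminoacyl-tRNA synthetase genes 4 were lower and 0 higher (0 higher at an unadjusted p under 0.05 and 0 by DESeq2), between 1 (without WT 1, WT 2 or WT 3) and 3 (without cKO 1) lower. Iars, the isoleucyl enzyme, had 62.7, 91.5 and 113 CPM in cKO-labelled libraries, against 200.5, 178 and 193 CPM in WT (log2 difference −1.10, SE 0.22, adjusted p = 0.00374), and it alone of the 4 kept its call under every alternative. Genes listed as nuclear long noncoding RNAs gave 5 lower and 0 higher of 15 (0 higher at an unadjusted p under 0.05 and 0 by DESeq2), between 4 (without cKO 1, cKO 3, WT 1, WT 2 or WT 3) and 5 (without cKO 2) lower. With the length trend removed 3 were lower. The place of these RNAs in the cell was not measured. Miat had 0.911, 0.300 and 0.398 CPM in cKO-labelled libraries, against 2.23, 3.62 and 1.72 CPM in WT (log2 difference −2.22, SE 0.48, adjusted p = 0.007). Gas5, a snoRNA host gene, had 286, 282 and 254 CPM in cKO-labelled libraries, against 417, 483 and 472 CPM in WT (log2 difference −0.74, SE 0.17, adjusted p = 0.00932). Kcnq1ot1 and Sox2ot, at −1.55 and −1.49, overlap other genes (the call of Kcnq1ot1 ended with the length trend removed), and whether counting used the strand is not given in the sources used here.

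Receptor, ion channel, synaptic adhesion and cadherin lists had more lower than higher calls, though most of their members were not called. The lower shares were 32.1%, 17.5%, 22.2% and 28.6% in this order, against 9.89% of all tested genes. Of 28 tested glutamate and GABA receptor genes 9 were lower and 1 higher, with a median of −1.0003; the lower count lay between 3 (without cKO 2, WT 1 or WT 3) and 8 (without cKO 1) when 1 library was left out. Gabbr2, a subunit of the GABA-B receptor, had 0.166, 0 and 0 CPM in cKO-labelled libraries, against 1.21, 1.43 and 2.02 CPM in WT (adjusted p = 0.00231). Gabra3, a GABA-A receptor subunit, had 1.66, 1.35 and 1.43 CPM in cKO-labelled libraries, against 10.05, 9.69 and 10.02 CPM in WT (log2 difference −2.74, SE 0.58, adjusted p = 0.00575). Voltage-gated ion channels gave 10 lower and 5 higher of 57, between 6 (without cKO 3) and 14 (without cKO 1) lower. Scn3a, a sodium channel of immature neurons, had 2.65, 3.68 and 2.95 CPM in cKO-labelled libraries, against 16.5, 16.4 and 18.02 CPM in WT (log2 difference −2.45, SE 0.32, adjusted p = 2.0e-04). The potassium channel Kcna2 had 38.5, 18.8 and 36.4 CPM in cKO-labelled libraries, against 105, 128 and 128 CPM in WT (log2 difference −1.95, SE 0.30, adjusted p = 8.0e-04). Neither channel nor receptor overlapped between the labels. Synaptic adhesion and scaffold genes gave 10 lower and 1 higher of 45, between 3 (without cKO 2, cKO 3 or WT 1) and 13 (without cKO 1) lower. Cadherins and protocadherins gave 8 lower and 2 higher of 28, between 4 (without WT 3) and 7 (without cKO 1 or cKO 2) lower, but 6 higher and 3 lower with the length trend removed. Ncam2, an adhesion protein of the immunoglobulin superfamily, had 15.5, 16.5 and 10.9 CPM in cKO-labelled libraries, against 33.6, 31.3 and 27.6 CPM in WT (log2 difference −1.11, SE 0.24, adjusted p = 0.00647). Axon guidance genes went both ways, with 9 higher and 7 lower of 53, between 3 (without WT 1, WT 2 or WT 3) and 10 (without cKO 1 or cKO 2) higher. Their shares were 17% and 13.2%, against 7.71% and 9.89% of all tested genes. Among the ephrin receptors, Epha7 was higher at 14.2, 32.1 and 80.5 CPM in cKO-labelled libraries, against 4.52, 8.85 and 6.05 CPM in WT (log2 difference 2.71, SE 0.54, adjusted p = 0.00411). Epha3 was lower at 0.497, 1.88 and 0.637 CPM in cKO-labelled libraries, against 5.66, 4.63 and 6.996 CPM in WT (log2 difference −2.50, SE 0.40, adjusted p = 9.5e-04). Unc5c, a netrin receptor, was lower at −1.83 (adjusted p = 0.00722).

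Markers of the glial and stem lineages were read beside these. Of 19 tested oligodendrocyte lineage markers 9 were lower (47.4%) and 2 higher, with a median of −1.87; the lower count lay between 7 (without cKO 3 or WT 2) and 8 (without cKO 1, cKO 2, WT 1 or WT 3) when 1 library was left out. Their summed level was 466 to 816 CPM in the libraries labelled cKO and 682 to 869 CPM in WT. Gpr17, a receptor of oligodendrocyte precursors, had 0.0828, 0 and 0.159 CPM in cKO-labelled libraries, against 8.16, 11.5 and 6.70 CPM in WT (adjusted p = 1.5e-05). Of 19 tested astrocyte markers 6 were lower (31.6%) and 1 higher, with a median of −0.72 and between 3 (without WT 2 or WT 3) and 7 (without cKO 2) lower. Their summed level was 3518 to 4471 CPM in the libraries labelled cKO and 4333 to 5957 CPM in WT. Aldoc, a glycolytic aldolase of astrocytes, had 335, 575 and 511 CPM in cKO-labelled libraries, against 680.2, 1183 and 907 CPM in WT (log2 difference −0.96, SE 0.26, adjusted p = 0.0208). For Gpr17 and Aldoc every library labelled cKO lay below every WT library, and the call of Aldoc ended without cKO 1, WT 2 or WT 3 and in the fit of the 6 libraries alone. The part of these markers in the lower neural genes was not tested. Of 24 tested neural stem cell markers 5 were lower and 1 higher, with between 4 (without cKO 3, WT 1, WT 2 or WT 3) and 6 (without cKO 2) lower. Prom1, a membrane glycoprotein of stem cells, had 5.71, 5.63 and 7.81 CPM in cKO-labelled libraries, against 58.9, 36.5 and 44.3 CPM in WT (log2 difference −2.87, SE 0.38, adjusted p = 2.5e-04). Hes5, a transcriptional repressor downstream of Notch, had 0.828, 0.375 and 0.319 CPM in cKO-labelled libraries, against 8.70, 8.51 and 5.69 CPM in WT (log2 difference −3.90, SE 0.55, adjusted p = 3.9e-04), while the Notch ligand Jag1 was higher in the same libraries. Dll3, a Notch ligand known to inhibit the pathway within its own cell, had 0.745, 0.375 and 0.478 CPM in cKO-labelled libraries, against 1.75, 3.37 and 2.55 CPM in WT (log2 difference −2.25, SE 0.37, adjusted p = 0.00127). Pax6, a transcription factor of cortical radial glia, had 11.6, 21.1 and 12.2 CPM in cKO-labelled libraries, against 34.9, 37.0 and 29.6 CPM in WT (log2 difference −1.18, SE 0.24, adjusted p = 0.00465). All 4 lay lower in every library labelled cKO. Of 27 tested Notch pathway genes 2 (Jag1 and Hes6) were higher and 2 (Hes5 and Dll3) lower. These shares were 7.41% each, against 7.71% higher and 9.89% lower of all tested genes. The call of Hes6 ended without cKO 2, WT 1, WT 2 or WT 3. Ptprz1, a receptor phosphatase of radial glia and oligodendrocyte precursors, fell by 1.08 (adjusted p = 0.00737). Of the 41 tested genes of the TGF-beta, activin and BMP pathway, the theme of the study's title, 9 were higher and 4 lower, between 5 (without WT 1, WT 2 or WT 3) and 11 (without cKO 1) higher. These were 22% and 9.76%, against 7.71% and 9.89% of all tested genes, so the lower share was that of all genes. The 4 lower genes were Tgfbr1, Smurf2, Bmpr2 and Skil. Ltbp3, which binds latent TGF-beta, had 11.3, 8.93 and 7.73 CPM in cKO-labelled libraries, against 3.57, 3.79 and 3.91 CPM in WT (log2 difference 1.31, SE 0.22, adjusted p = 0.00163). Bmp2 had 18.1, 10.9 and 9.56 CPM in cKO-labelled libraries, against 1.15, 0.927 and 0.949 CPM in WT (log2 difference 3.66, SE 0.71, adjusted p = 0.00354).

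The regional transcription factors Otx2 and Six3 were high in cKO 2 and cKO 3 and near the WT level in cKO 1. Otx2, a factor of the forebrain and midbrain, had 0.248, 33.9 and 18.6 CPM in cKO-labelled libraries, against 0.202, 0.0843 and 0.119 CPM in WT (log2 difference 6.92, SE 1.46, adjusted p = 0.00567). Six3, a factor of the anterior forebrain, had 0.662, 119 and 59.6 CPM in cKO-labelled libraries, against 0.337, 0.0843 and 0.593 CPM in WT. The call of Six3 ended without WT 1. Library cKO 1 was just above the WT range for Otx2 and Six3. Gli3, a transcription factor of the Hedgehog pathway, rose in all 3 libraries labelled cKO, with 22.3, 34.5 and 20.1 CPM in cKO-labelled libraries, against 4.25, 6.07 and 3.56 CPM in WT (log2 difference 2.48, SE 0.41, adjusted p = 0.00136). Its pathway otherwise gave Smo, the signal transducer, higher at 0.91 and the receptors Cdon and Ptch1 lower at −2.09 and −1.83, of 12 tested genes. The call of Smo ended without WT 1, WT 2 or WT 3, and that of Ptch1 without cKO 1, cKO 2, cKO 3, WT 1, WT 2 or WT 3 and with the length trend removed. Tfap2a, a factor of the neural crest, was high in cKO 1 alone, with 30.6, 1.95 and 0.319 CPM in cKO-labelled libraries, against 0.135, 0.758 and 0.593 CPM in WT; its call ended without cKO 1, WT 1, WT 2 or WT 3, by limma on TPM and under the replicate block. The neural crest factors Foxd3 and Tfap2b were at 0 in all 6 libraries. Wnt pathway genes gave 7 higher and 3 lower of 44, between 2 (without WT 1 or WT 2) and 9 (without cKO 1) higher. These were 15.9% and 6.82%, against 7.71% and 9.89% of all tested genes. Tcf7l2, a nuclear effector, had 185, 152 and 161 CPM in cKO-labelled libraries, against 69.0, 103 and 75.8 CPM in WT (log2 difference 1.01, SE 0.19, adjusted p = 0.00341). Crabp1, a retinoic acid-binding protein, had 2.07, 0.976 and 3.58 CPM in cKO-labelled libraries, against 0.0674, 0.169 and 0.0593 CPM in WT (adjusted p = 0.00163).

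Several genes that hypoxia-inducible factors are known to activate fell. Of 36 tested glycolysis and hypoxia genes 8 were lower and 2 higher, with between 6 (without cKO 2, WT 1, WT 2 or WT 3) and 8 (without cKO 1) lower, and the list's median was −0.86, −0.12 and −0.11 in cKO 1, 2 and 3. Bnip3, a receptor of mitophagy, had 56.8, 84.6 and 97.2 CPM in cKO-labelled libraries, against 317, 333 and 296 CPM in WT (log2 difference −1.99, SE 0.18, adjusted p = 1.3e-05). Its relative Bnip3l had 164, 184 and 174 CPM in cKO-labelled libraries, against 279, 290.3 and 304 CPM in WT (log2 difference −0.74, SE 0.17, adjusted p = 0.00779). Ldha, lactate dehydrogenase A, had 533, 1028 and 709.6 CPM in cKO-labelled libraries, against 1909, 1686 and 1848 CPM in WT (log2 difference −1.26, SE 0.27, adjusted p = 0.00686). Pdk1, which inhibits pyruvate dehydrogenase, had 6.71, 8.93 and 11.5 CPM in cKO-labelled libraries, against 26.0, 34.2 and 27.3 CPM in WT (log2 difference −1.68, SE 0.30, adjusted p = 0.00202). The glycolytic kinase Pgk1 had 292, 342 and 257 CPM in cKO-labelled libraries, against 553, 523 and 597 CPM in WT (log2 difference −0.91, SE 0.19, adjusted p = 0.00583). All 5 were lower in every library labelled cKO and kept their calls under every alternative. Adm, a secreted peptide that hypoxia also induces, was higher at 1.44 (adjusted p = 0.0178), and so was Hk1, a hexokinase bound to mitochondria, at 1.15 (adjusted p = 0.0118). These calls ended without cKO 2, cKO 3, WT 2 or WT 3 for Adm and without WT 3 for Hk1.

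The promoters of Bnip3 and Ldha are shown because both hold CACGTG, a sequence that contains the core of the hypoxia response element; the genes and the motif were chosen after the values were seen. They run from 250 bases before to 50 after the start, 5′ to 3′ on the gene's strand, from RefSeq (GRCm38.p6), with CACGTG in capitals. Bnip3 is at chr7:138909457-138909756 on the minus strand with the motif 108 bases before the start, and Ldha at chr7:46845554-46845853 on the plus strand with it 145 and 48 bases before.
Bnip3: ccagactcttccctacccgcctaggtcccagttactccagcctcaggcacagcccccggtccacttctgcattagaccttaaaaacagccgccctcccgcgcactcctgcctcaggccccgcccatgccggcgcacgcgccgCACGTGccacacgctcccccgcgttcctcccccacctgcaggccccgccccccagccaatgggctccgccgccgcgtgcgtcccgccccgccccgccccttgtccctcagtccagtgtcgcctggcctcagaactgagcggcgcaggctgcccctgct
Ldha: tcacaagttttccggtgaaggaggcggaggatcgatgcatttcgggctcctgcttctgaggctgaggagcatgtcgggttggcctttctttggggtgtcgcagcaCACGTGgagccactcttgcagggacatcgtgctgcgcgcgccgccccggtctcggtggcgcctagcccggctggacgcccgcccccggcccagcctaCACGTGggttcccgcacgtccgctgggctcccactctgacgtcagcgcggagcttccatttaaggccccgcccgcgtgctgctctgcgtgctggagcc
Searched on both strands, where it reads the same, CACGTG occurred in 7.15% of all 32851 promoters and in 9.79% of those of tested genes.

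Mitosis genes differed most in library cKO 3. Of 60 tested genes 5 were lower (8.33%, against 9.89% of all tested genes) and 1 higher, and the median difference was −0.95 with library medians of −0.60, −0.69 and −2.05 in cKO 1, 2 and 3; the lower count lay between 0 (without cKO 3 or WT 1) and 8 (without cKO 2) when 1 library was left out. It was 14 by DESeq2, 15 by limma on TPM, 18 with no filter on low counts, 19 in the fit of the 6 libraries alone, 30 under the replicate block and 3 with the length trend removed. Kif2c, a kinesin that depolymerises microtubules, had 15.98, 39.2 and 18.2 CPM in cKO-labelled libraries, against 118, 83.2 and 94.4 CPM in WT (log2 difference −2.01, SE 0.52, adjusted p = 0.0165). It was no longer called without cKO 3 or WT 1. Cdkn1a, the inhibitor of cyclin-dependent kinases p21, was highest in the same library, with 126, 176 and 315 CPM in cKO-labelled libraries, against 66.3, 52.6 and 62.1 CPM in WT (log2 difference 1.77, SE 0.45, adjusted p = 0.0151). Its call ended without cKO 3, WT 1, WT 2 or WT 3. Lipid genes were divided: 8 of 48 tested fatty acid genes were higher and 5 lower, between 2 (without WT 3) and 15 (without cKO 1) higher. The shares were 16.7% and 10.4%, against 7.71% and 9.89% of all tested genes, so the lower share was near that of all genes. Ppargc1a, a coactivator of mitochondrial genes, had 73.1, 148 and 156 CPM in cKO-labelled libraries, against 51.4, 65.0 and 54.8 CPM in WT (log2 difference 1.1401, SE 0.21, adjusted p = 0.00298). Acadl, an enzyme of fatty acid oxidation, had 99.9, 123 and 84.4 CPM in cKO-labelled libraries, against 43.0, 41.1 and 48.2 CPM in WT (log2 difference 1.21, SE 0.23, adjusted p = 0.00314). Elovl2, which elongates polyunsaturated fatty acids, had 44.1, 68.2 and 26.0 CPM in cKO-labelled libraries, against 283, 260.3 and 264 CPM in WT (log2 difference −2.54, SE 0.66, adjusted p = 0.0166). The call ended without cKO 3.

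The same labels were compared after transcription had been blocked. Of the 1082 genes higher at 0 h, 618 (57.1%) were also higher at 2 h and 588 (54.3%) at 4 h, and 495 at all 3 times. Of the 1387 lower genes 747 (53.9%) were also lower at 2 h and 673 (48.5%) at 4 h, and 584 at all 3 times. Over all tested genes, 1195 were higher and 1198 lower at 2 h (8.52% and 8.54%), and 1549 were higher and 1278 lower at 4 h (11% and 9.11%). The shared genes were 51.7% of the higher and 62.4% of the lower list at 2 h, and 37.96% and 52.7% of those at 4 h. Opposite calls were 1 at 2 h and 4 at 4 h. The median difference of genes higher at 0 h was 1.20, 0.97 and 0.94 at 0, 2 and 4 h, and that of lower genes was −1.11, −0.89 and −0.83; the genes were chosen by the first value of each. Mmp3 differed by 6.26, 6.34 and 6.62 at the 3 times, Jag1 by 2.59, 2.34 and 2.73, Dcx by −2.63, −3.05 and −3.19, and Bnip3 by −1.99, −2.60 and −3.08. Same-numbered libraries deviated together across the times, so the later libraries are not independent of those at 0 h.

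Pull-down libraries of WT cells give, for the same genes, the RNA enriched with an antibody to m6A or to YTHDF2. Of genes with a value, 853 of 13350 were enriched over input with the m6A antibody (6.39%), and 1545 of 13336 were enriched with the YTHDF2 antibody over both input and IgG (11.6%). The m6A-enriched share was 4.11% of higher genes (41 of 997), 10.02% of lower genes (138 of 1377) and 6.14% of genes not called. The YTHDF2-enriched share was 11.02% of higher (112 of 1016), 17.2% of lower (230 of 1337) and 10.95% of genes not called. Median log2 differences of YTHDF2 over input were −0.24 for higher, 0.66 for lower and 0.17 for uncalled genes. Over IgG they lay close together, at −0.09, −0.03 and −0.09 in this order. The part of pull-down background in the shares was not tested. With the replicate number as a block, which pairs the YTHDF2 libraries, these YTHDF2 shares were 15.9% of higher and 24.2% of lower genes, against 16.5% of genes not called and 17.2% of all tested genes. The titles and descriptions of the YTHDF2 and input libraries name them in opposite ways; grouped by the titles instead, the shares were 20.9% of higher and 6.13% of lower genes, so the order of the YTHDF2 shares depends on which label is right. Ythdf2 itself had pull-down over input differences of 0.27 with the m6A antibody and 1.34 with the YTHDF2 antibody, a value that is −1.34 with the groups taken from the titles.

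Enrichment also varied with length. In the group of longest transcripts the m6A-enriched share was 5.13% of higher, 9.87% of lower and 9.67% of genes not called, and in the group of shortest it was 0.949%, 0% and 1.28%. In the middle group it was 7.84% of higher and 11.3% of lower genes, against 5.77% of genes not called, so the difference between lower and uncalled genes was not of one size across lengths; it was not tested. Both antibodies enriched 360 of 13087 genes with a value (2.75%), among them 10 of 989 higher genes (1.01%) and 68 of 1336 lower genes (5.09%). With the YTHDF2 and input groups taken from the titles, both enriched 16 genes in all, 1 of which was called at 0 h, so this count rests on the library descriptions. Fut8, a fucosyltransferase, was among the higher ones at 1.01, and the zinc finger genes Zkscan1 and Zfp60 were among the lower ones at −1.22 and −1.73; these examples were chosen after their values were seen.

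**Figure D5:**
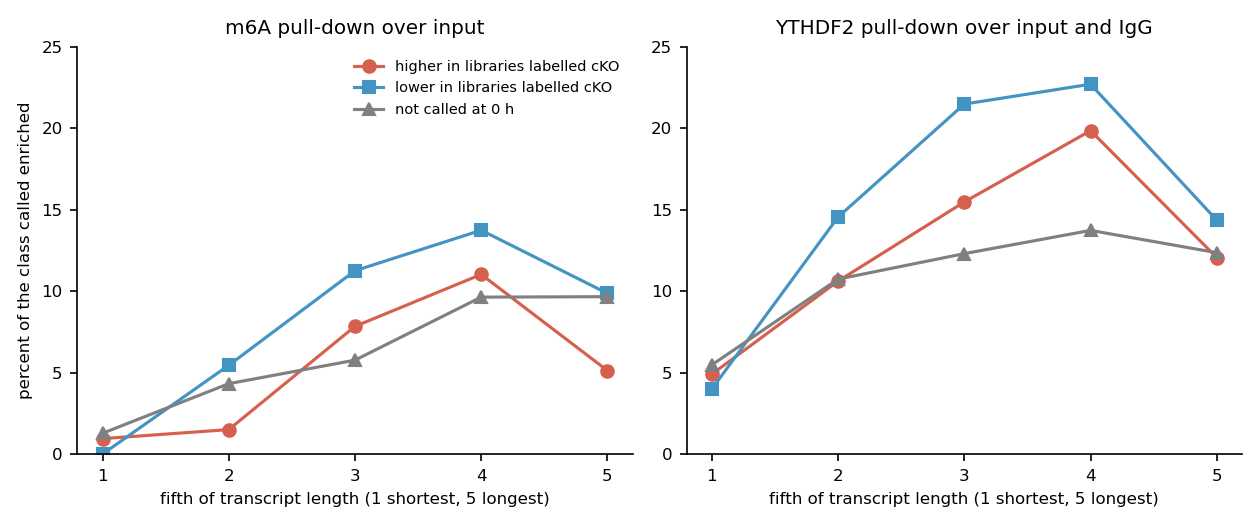
Percentage of genes of each class at 0 h (higher in libraries labelled cKO, lower, not called) that were enriched in the m6A pull-down over input (left) and in the YTHDF2 pull-down over input and IgG (right), against 5 groups of transcript length from shortest to longest; 1 point per class and group, with no error bars. In the group of longest transcripts the m6A-enriched share is 5.13% of higher, 9.87% of lower and 9.67% of uncalled genes.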

How the data were processed

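RNA-seq libraries of hippocampal neural stem cells were made by the SMART-seq2 method from 300 ng of total RNA, per the labels' protocols. bcl2fastq 2.17.1.14, Trimmomatic 0.32, STAR 2.5.2a and the build GRCm38 are named per the submitters' processing notes; the sources used here do not give the counting tool, annotation or use of strand. The deposited count table holds raw counts per gene for 26621 genes, and a deposited TPM table holds length-scaled transcript values made by the authors; TPM served only for levels per length, relative length (counts over TPM) and 1 alternative.

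edgeR 4.0.16 (R 4.3.3) was run on the deposited counts of the 18 libraries at 0, 2 and 4 h with TMM factors, filterByExpr (14029 genes kept) and the quasi-likelihood test, 12 residual degrees of freedom and Benjamini-Hochberg adjustment over all tested genes at 0.05. CPM use the TMM factors. Same-numbered libraries deviated together across times (0 h with 2 h, r = 0.337, 0.358 and 0.429 in the libraries labelled cKO and 0.286, 0.188 and 0.153 in WT), so 12 degrees of freedom overstate independence; the 6 libraries at 0 h alone gave 1090 higher and 1216 lower genes. No pair of libraries agreed within sampling noise (chi-square per degree of freedom 31.0 to 145 in the libraries labelled cKO, 6.73 to 11.3 in WT). Depth of 10257329 to 16244456 counts limits genes of few counts.

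Genes named were Ythdf2; the 10 per direction with the smallest p among those with a mean of at least 16 CPM and groups that do not overlap; the 6 per direction with the highest TPM; and up to 4 called members per list with the smallest p. The comparison, its 63 lists and this rule were chosen with earlier results of these data known. Tgfbr1, Smurf2, Bmpr2, Skil, Stmn2, Dlx1 and Dlx2 were added to give the other direction of their lists. Igf1r, Erbb4, Ntrk3, Igfbp2, Igfbp3 and Igfbp4 were added to give the called receptors and Igfbp genes of the growth factor list. Spry2, Spry4, Hbegf, Bdnf, Areg, Ereg, Hmox1, Bnip3l, Adm, Hk1, Cyc1, Mmp2, Timp3, Fn1, Trnau1ap, Smpdl3b, Wasf2, Atpif1, the sex-linked genes and the regional factors split by library were chosen after their values were seen. The 14 alternatives per gene were no filter, limma 3.58.1 on log2(TPM + 1), RLE factors, unscaled library sizes, DESeq2 1.42.0, the 6 libraries alone, a replicate block, each of 6 libraries left out, and, chosen after seeing the data, the trend of log2 CPM over transcript length removed (lowess, span 0.5).

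Pull-down counts were tested the same way against input, and for YTHDF2 also against IgG, grouped by the library descriptions. Numbers pair the YTHDF2 with the input (r = 0.513, 0.378 and 0.361) and IgG libraries (r = 0.646, 0.517 and 0.517). Promoters and coordinates come from RefSeq for GRCm38.p6; 13649 of 14029 genes matched by symbol. The test was checked on simulated data. Some genes are not reported here.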

Additional observations from a re-analysis of the deposited data

Results flagged for a closer look

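In a test over the 18 libraries that left out their pairing across times, the difference between the labels changed between 0 h and 4 h for 3 genes (edgeR). For Bag5, a co-chaperone of Hsp70, the difference at 4 h was larger than that at 0 h by 1.49 (log2, SE 0.24, adjusted p = 0.0367). For Enc1, an actin-associated protein of the nervous system, the change was 2.20 (SE 0.35, adjusted p = 0.0367), with a difference of −1.32 at 0 h and 0.88 at 4 h. For Ddx10, an RNA helicase, it was 1.69 (SE 0.26, adjusted p = 0.0367). With library number within label as a block, the values were 1.499 for Bag5 (adjusted p = 0.00711), 2.15 for Enc1 (adjusted p = 0.00711) and 1.69 for Ddx10 (adjusted p = 0.00751). That edgeR fit, which follows the pairing across times, called 296 genes, with an upward change for 199 and a downward one for 97. Among them were 18 named genes, such as Ythdf2 at 1.79 (adjusted p = 0.0495) and Bnip3 at −1.07 (adjusted p = 0.0206). The groups of 3 are too small for a test of single libraries that stand apart.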

How the results depend on the processing

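No gene called at 0 h was called the other way under the 14 alternatives. DESeq2 called 1712 genes higher, limma on TPM 2429 lower with 320 lower list members (197 in the count test), and removal of the length trend, chosen after seeing the data, 894 lower with 122 lower list members. Leaving out 1 library gave 306 to 1370 higher and 567 to 1476 lower genes, 103 to 329 higher (296 with all libraries) and 97 to 214 lower list members, and 1.86 to 3.10 for Ythdf2. Of the named genes, 27 to 82 calls were lost without 1 library (most without WT 3), 36 without the length trend and 23 in the 6 libraries alone. Same-way calls of named genes at later times, 155 at 2 h and 155 at 4 h, stayed within 1.5 times of these counts.

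Replicate numbers do not pair the labels at 0 h (r = 0.030, 0.025 and −0.085); a replicate block gave 1420 higher and 1930 lower genes and 315 lower list members. A block over library number within label across the 3 times moved the genes whose difference changed by 4 h to 296, against 3. In the pull-downs the replicate block gave YTHDF2-enriched shares of 15.9% of higher and 24.2% of lower genes, and m6A-enriched shares of 13.2% and 30.2%, against 18.2% of all tested genes, where one of the pairs correlated at only 0.0708. Lower genes past 2-fold had an m6A-enriched share of 7.72%. Grouping by titles gave YTHDF2 shares of 20.9% and 6.13%. The causes were not tested.

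With 3 libraries per label, detection of small differences was limited: the test recovered 35% of simulated 2-fold and 95% of simulated 4-fold changes at 0 h (13321 genes). The simulated libraries were drawn independently with the same dispersion in both labels, and only genes above a floor of counts were changed. The simulation therefore does not measure the effect of the larger spread in the libraries labelled cKO, of the pairing across times or of few counts. Gene-level counts hold no exon information on the Ythdf2 allele, and sex, fibroblast markers and transcript length were not separated from the label.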

Other observations

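Primary cilium genes, whose products build the antenna through which Hedgehog signals enter the cell, gave 7 lower and 2 higher of 48 tested, with between 1 (without WT 1 or WT 2) and 7 (without cKO 1) lower when 1 library was left out. Their shares were 14.6% lower and 4.17% higher, against 9.89% and 7.71% of all tested genes. Bbs4, a subunit of the BBSome that carries membrane proteins out of the cilium, had 19.3, 13.96 and 18.6 CPM in cKO-labelled libraries, against 36.8, 37.4 and 41.2 CPM in WT (log2 difference −1.16, SE 0.25, adjusted p = 0.0071, edgeR). Ift57, a part of the transport complex along the cilium, had 19.3, 17.0 and 15.7 CPM in cKO-labelled libraries, against 7.82, 5.98 and 8.30 CPM in WT (log2 difference 1.23, SE 0.23, adjusted p = 0.00256). Tulp3, which carries receptors into the cilium, had 88.2, 67.2 and 78.5 CPM in cKO-labelled libraries, against 21.1, 29.0 and 32.0 CPM in WT (log2 difference 1.51, SE 0.29, adjusted p = 0.00306). For the 3 genes the labels did not overlap. Imprinted genes, expressed from one parental allele, gave 4 higher and 6 lower of 40 (10% and 15%), between 3 (without WT 2 or WT 3) and 7 (without cKO 1) lower. Grb10, an adaptor that restrains insulin signalling, had 0.0828, 0.225 and 0 CPM in cKO-labelled libraries, against 1.21, 1.69 and 3.68 CPM in WT (adjusted p = 0.00459). Heat shock chaperones gave 4 higher and 3 lower of 27 (14.8% and 11.1%), among them the small chaperone Hspb8 at 1.66 and Chordc1 at −0.94. Clock genes gave 1 call in each direction of 20 (5% each): Nfil3, a repressor of the clock's output, at 1.84 and Clock at −0.97. Against 7.71% higher and 9.89% lower of all tested genes, the higher imprinted and lower heat shock shares were near the background and the clock shares below it.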
